A study of Mus musculus with 33 samples.

Results

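The genes described here are 8 multicopy genes of the mouse 2-cell embryo, the deubiquitinase genes Usp17la, Usp17lb, Usp17lc, Usp17ld and Usp17le and the copies Gm21293, Gm21312 and Gm13696, taken by name from the 55487 genes of each deposited table. They were chosen by their rise in embryonic stem cells (ESCs) without HP1β and HP1γ against the wild-type ESCs of the same table. Their values in that comparison are therefore given as a description, without a test. RNA-seq of C57BL/6 ESCs was analysed for 33 libraries in 11 groups with 3 libraries each. Single knockouts (KO) had lost HP1α, HP1β or HP1γ, and double knockouts (DKO) a pair of them, α/β, α/γ or β/γ, by constitutive deletion with CRISPR/Cas9. The triple knockout (TKO) lacked all 3 paralogs and came, by the methods of the study, from α/β DKO cells with a floxed Hp1γ after transfection with Cre recombinase. In the SETDB1 KO Cre had removed floxed exons, and the control was the floxed line, SETDB1 FF. Wild-type set A was the control of the single KO, of the α/β DKO and of the TKO, and wild-type set B was that of the α/γ DKO and the β/γ DKO. In the plots a knockout carries the sign Δ/Δ and SETDB1 FF is Setdb1 F/F. The study's methods call the libraries of a group biological replicates, from separate transfections for the TKO, and the labels do not say whether they came from separate clones.

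The HP1 proteins HP1α, HP1β and HP1γ, encoded by Cbx5, Cbx1 and Cbx3, bind methylated lysine 9 of histone H3 and help to keep heterochromatin silent, and SETDB1 is one of the enzymes that place this mark. Mouse embryos at the 2-cell stage transcribe a set of genes that ESCs keep largely silent, many of them in clusters of recent copies. In ESC cultures a small fraction of cells passes through a 2-cell-like state in which these genes are expressed, and the transcription factor Dux is known to switch many of them on. USP17 proteins remove ubiquitin from other proteins. ALYREF, the protein most similar to the product of Gm21293 and Gm21312, couples splicing of mRNA to its export, and CWC22, to which Gm13696 is related, is a splicing factor that helps to place the exon junction complex.

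All 8 genes were matched by identifier to GENCODE M21 (GRCm38), and they lie in 3 families on 3 chromosomes. The 5 Usp17l genes lie on chromosome 7, with Usp17ld (103249737 to 103252505) and Usp17lc (103415072 to 103419880) apart from Usp17le (104768049 to 104777470), Usp17lb (104840257 to 104842603) and Usp17la (104857009 to 104862667). Gm21293 (104142987 to 104153674) and Gm21312 (104177024 to 104179491) belong to a cluster of 7 Alyref-like copies that spans 53.54 kb of chromosome 10. Gm13696 (83973123 to 83975615) is one of 7 Cwc22-like copies within 37.35 kb of chromosome 2. The longest transcripts of Gm21293 and Gm21312 have 1246 bases each, and 100% of the 100-base windows of either were also found in the transcripts of the other and of Gm6763, Gm8764, Gm21304 and Gm20765, with 95.5% found in Gm4340. The 2493 bases of Gm13696 were likewise shared in full with 5 other copies, and 21.4% of its windows with Cwc22 itself. Among the Usp17l genes only Usp17lc and Usp17ld shared a large stretch, 745 windows or 32.3% and 39.5% of their transcripts, and no other pair of members shared over 5.62%. A read of Gm21293, Gm21312 or Gm13696 can thus seldom be placed, and their counts are estimates that divide the reads of a family between its copies. For this reason the summed counts of each family are given beside the single genes, with the parent gene Cwc22 left out and the pseudogenes Usp17le-ps and Gm5053 counted with Usp17l.

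Promoter windows of RefSeq (GRCm38.p6, 250 bases before to 50 bases after a start) were found for 6 of the 8 members. They are shown for 3 Usp17l genes, because a stretch before their starts is nearly the same in each, and for 1 Alyref-like copy. The shared windows of the transcripts and the identity of bases in these stretches are unlike measures and are not compared. The 3 Usp17l stretches are printed 5′ to 3′ and end before the annotated gene. Capitals in them mark the letters of a TATA box, TATAAAAG, or the run at the matching place of Usp17la. This run begins 46, 31 and 110 bases before the RefSeq start in Usp17la, Usp17lb and Usp17ld, so that its distance from the start differs. In the stretch of Gm21293 capitals mark an inverted repeat of GATT.
Usp17la (chr7:104856877-104857002, plus strand): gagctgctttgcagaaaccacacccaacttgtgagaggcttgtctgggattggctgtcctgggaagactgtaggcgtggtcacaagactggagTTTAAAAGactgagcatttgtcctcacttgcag
Usp17lb (chr7:104842604-104842707, minus strand): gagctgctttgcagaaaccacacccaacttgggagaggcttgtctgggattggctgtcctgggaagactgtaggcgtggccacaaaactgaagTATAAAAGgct
Usp17ld (chr7:103252583-103252708, minus strand): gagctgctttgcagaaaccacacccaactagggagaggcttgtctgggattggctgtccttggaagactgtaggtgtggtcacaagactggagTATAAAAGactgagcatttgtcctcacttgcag
Gm21293 (chr10:104142796-104142894, plus strand): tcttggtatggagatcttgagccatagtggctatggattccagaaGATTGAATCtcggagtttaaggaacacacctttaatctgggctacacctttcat

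Over 126 bases of this stretch the windows of Usp17la, Usp17lb, Usp17lc and Usp17ld were 94.4% to 96.8% identical. TATAAAAG, searched on both strands, was in the windows of Usp17lb, Usp17lc and Usp17ld and in 1.7% of all 32851 promoter windows. The window of Usp17la has TTTAAAAG at the same place of the shared stretch, an 8-letter run found in 2.1% of all windows. The 6 Alyref-like copies with a window differed by at most 1 of 300 bases from Gm21293. GATTNAATC, a repeat of the kind that double-homeobox factors such as Dux bind, was in all 6 of them and in 0.268% of all windows, and in none of the 4 Usp17l windows. These matches describe the letters of the windows, and no binding was measured here.

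The contrast that chose the genes gives the highest summed level of the 8, but not the highest level of each gene. The level is given in CPM, the estimated counts of a gene, rounded to whole numbers, per 1e6 counts of its library after TMM scaling of the 6 libraries of a comparison. Usp17le had 279, 322 and 322 counts in the 3 libraries of β/γ DKO ESCs and 1, 2 and 0 in wild-type set B, or 13.01 ± 0.98 and 0.0465 ± 0.0451 CPM (SD, n = 3 each). Gm21293 had 329, 460 and 298 counts against 0 in each wild-type library, and its level was at least 110-fold higher than a floor of 3 counts a library. Gm21312 had 368, 228 and 392 counts, Gm13696 338, 301 and 372, and neither had a whole count in wild-type set B. The other 4 Usp17l genes had 68 to 152 counts in each mutant library and at most 2 in a control library. For every one of the 8 genes the 3 mutant libraries lay above the 3 control libraries without overlap, as they had to, given the rule. In this comparison 7.32% of the 16263 genes tested were called higher and 4.54% lower, and nothing is read from the members' place among them. A gene is called where the adjusted p of edgeR's quasi-likelihood test, corrected after Benjamini and Hochberg for all genes, is under 0.05 and the fitted change, in either direction, exceeds 1 on the log2 scale. Summed over the 8 genes, the level was 75.5 ± 3.18 CPM in β/γ DKO ESCs and 0.122 ± 0.0918 CPM in wild-type set B (SD, n = 3 each). In bulk RNA, more cells that express these genes and more RNA in each such cell cannot be told apart.

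**Figure D1:**
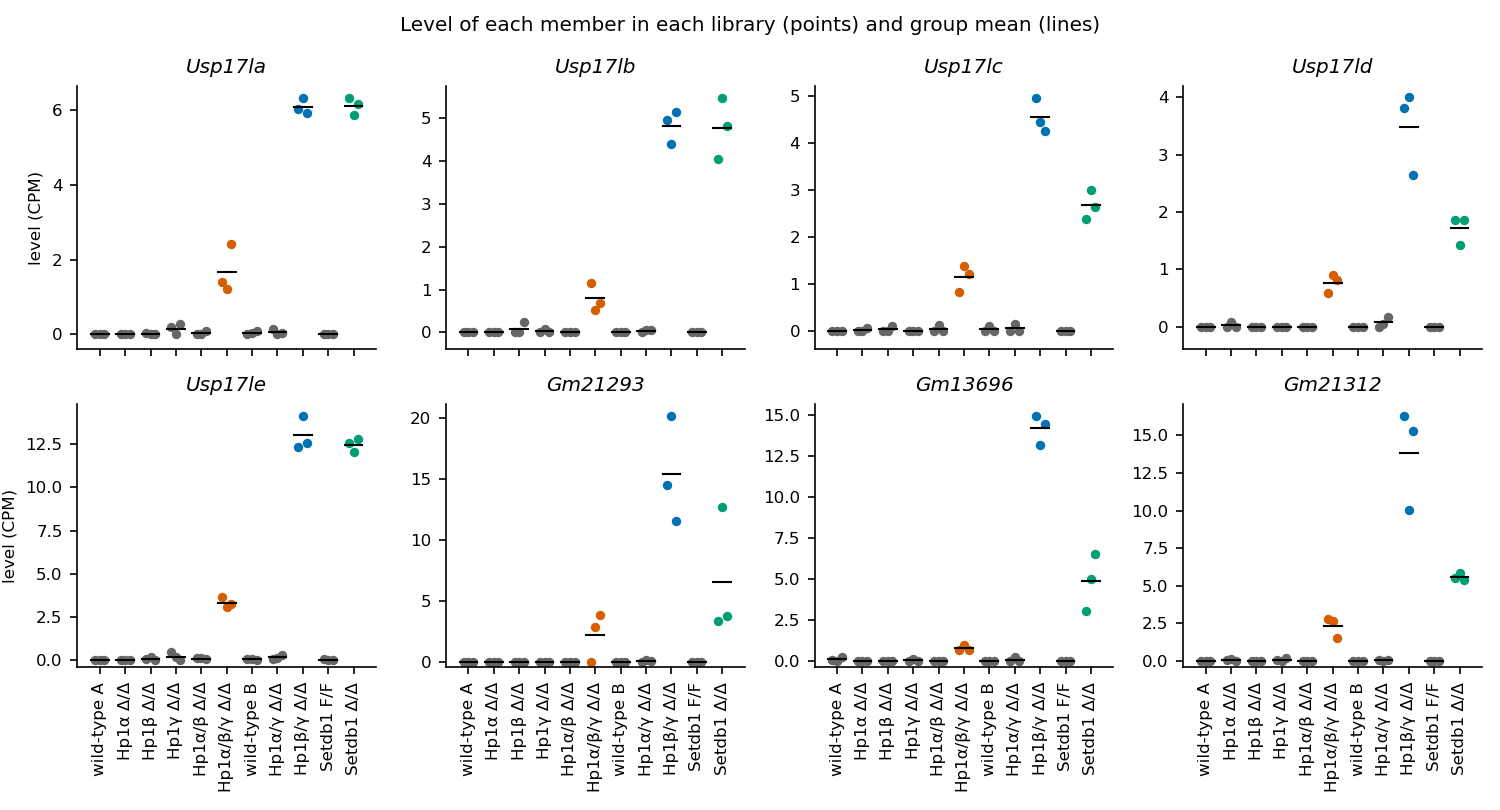
Level of each of the 8 genes (CPM, linear axis, a separate scale for each panel) in the 3 libraries of each of the 11 groups, with a line at the group mean. β/γ DKO (blue), SETDB1 KO (green) and TKO (orange) stand above all other groups (grey), in which no library had more than 9 counts of any member, and the single exception is a library of TKO with no count of Gm21293.

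The libraries of the Setdb1 comparison are not those named in the rule, although the genes were picked with earlier results of all these data known. All 8 genes were higher in SETDB1 KO cells than in SETDB1 FF ESCs, from a control in which 7 of them had no whole count in any library. Usp17le had 243, 246 and 262 counts in SETDB1 KO and 1, 0 and 0 in SETDB1 FF, which is 12.5 ± 0.387 against 0.0171 ± 0.0296 CPM (SD, n = 3 each). With a single control count the ratio was 666, with a 95% interval of 119 to 26400 that covers counting error only. The fitted change was 8.95 ± 0.313 on the log2 scale (estimate ± SE, adjusted p = 2.63e-14, edgeR's quasi-likelihood test). Usp17la had 122, 120 and 126 counts in SETDB1 KO, a level of 6.11 ± 0.228 CPM (SD, n = 3), at least 36.1-fold above the floor of 3 counts a library (adjusted p = 2.93e-11 from the same test). Usp17lb had 78, 112 and 99 counts and was at least 28.3-fold higher, Usp17lc had 46, 61 and 54 and was at least 15.8-fold higher, and Usp17ld had 36, 29 and 38 and was at least 10.1-fold higher.

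The copies of the other families rose as well. Gm21312 had 107, 120 and 110 counts in SETDB1 KO cells, at least 33.1-fold above the floor (adjusted p = 5.57e-11, edgeR), and these libraries lay close to each other. Gm21293 had 65, 260 and 77 counts, with library 2 far above the others, and was at least 39.1-fold higher (adjusted p = 1.51e-06, edgeR). Gm13696 had 59, 102 and 134 counts, which is 4.86 ± 1.74 CPM (SD, n = 3), and was at least 28.7-fold higher (adjusted p = 7.75e-09, edgeR). With all 16457 genes ranked by log2 fold change, the 8 genes lay between places 8 and 96, although a fitted fold change against a control at 0 depends on the prior count. Of all genes tested in this comparison, 18.5% were higher. None of the members reached 10 counts in a control library, so that each passed the filter on low counts through the mutant libraries and had to differ to be tested. Without that filter the same 8 of 8 were higher, beside 14.2% of the 29757 genes then fitted. A gene with no control count still enters such a fit through its mutant libraries. In the same libraries Cbx5, Cbx1 and Cbx3 were at 75.4%, 66.0% and 59.0% of SETDB1 FF, with each mutant library below every control library. Their adjusted p was 1.22e-11, 2.64e-12 and 6.98e-13 (edgeR), and none was called, since no change exceeded 1 on the log2 scale.

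In TKO cells the levels were lower than in the other high groups, but again above a control near 0. Of the 8 genes, 7 passed the filter and exceeded wild-type set A, where 25.1% of all 17504 genes tested were higher, and without the filter 8 of 8 were higher, beside 18.8%. As in the Setdb1 comparison, no member reached 10 counts in a control library. Each member tested therefore passed the filter through the mutant libraries and had to differ to be tested. Usp17le had 76, 58 and 75 counts in the mutant and none in wild-type set A, a level of 3.32 ± 0.295 CPM (SD, n = 3) that was at least 21.6-fold above the floor (adjusted p = 2.58e-09, edgeR's quasi-likelihood test). Gm21312 had 58, 50 and 36 counts and was at least 15.2-fold higher (adjusted p = 7.94e-08, edgeR). Usp17la had 29, 23 and 56 counts, Usp17lc 17, 26 and 28, Usp17lb 24, 10 and 16 and Usp17ld 12, 17 and 19, all against none in the control, for bounds of 10.9-fold, 7.38-fold, 5.15-fold and 4.98-fold. Gm13696 had 14, 18 and 15 counts against 1, 0 and 4, a ratio of 8.76 and a log2 fold change of 3.05 (SE 0.684, adjusted p = 0.000474, edgeR). This fold rests on the 4 counts of 1 wild-type library, since the log2 fold change was 4.58 without replicate 3 of wild-type set A. Gm21293 had 0, 54 and 91 counts and did not pass the filter.

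The same libraries were set against α/β DKO ESCs, which also lack HP1α and HP1β. Loss of HP1γ, transfection with Cre and the history of the lines cannot be told apart in this comparison. The methods name the same floxed cells with a control vector as the control of the TKO, while the labels of the libraries in its table read WT, and the labels were followed here. Usp17le had 2, 3 and 1 counts in α/β DKO, so that its level was 32.7 times higher in TKO cells, with a log2 fold change of 4.95 (SE 0.416, adjusted p = 1.49e-08, edgeR). Usp17la had 2 counts in all in α/β DKO and a ratio of 50.6, with a 95% interval of 13.7 to 423 for counting error. The 7 genes that passed the filter were all higher, where 25.4% of 17426 genes tested were higher, and without the filter 8 of 8 were higher, beside 19.1%. No member reached 10 counts in an α/β DKO library, so that these too had to differ to be tested. Both comparisons of TKO cells use the same 3 mutant libraries and are not separate evidence.

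When counts of the Alyref-like copies were added up, the spread between libraries was smaller than that of Gm21293. In SETDB1 KO cells the coefficient of variation over the 3 libraries was 80.0% for Gm21293 alone and 3.10% for the sum of the 7 Alyref-like copies, which had 737 to 783 counts in each library. In TKO cells, where Gm21293 was listed at 0 in one library, the sum had 304 to 360 counts and a coefficient of 7.0%. The 7 Alyref-like copies reached 37.6 ± 1.17 CPM in SETDB1 KO, 15.6 ± 1.09 CPM in TKO and 91.1 ± 1.56 CPM in β/γ DKO (SD, n = 3 each). The Usp17l genes reached 28.0 ± 0.584, 7.95 ± 0.41 and 32.3 ± 1.5 CPM in the same order, and the Cwc22-like copies 5.26 ± 1.73, 2.97 ± 0.602 and 16.8 ± 0.467 CPM. Fitted as 1 row each, which was chosen after seeing the data, all 3 families were higher in SETDB1 KO than in SETDB1 FF (adjusted p = 3.27e-17 for Usp17l, 7.95e-18 for Alyref-like and 2.58e-09 for Cwc22-like copies, edgeR). The same held for TKO against wild-type set A (adjusted p = 4.65e-12, 3.58e-14 and 6.26e-08, edgeR). In the same order the families had 2, 3 and 0 counts in all in SETDB1 FF and 0, 3 and 5 in wild-type set A. Like the members, they passed the filter through the mutant libraries and had to differ to be tested. Cwc22, the single-copy parent gene, was at 87.1 ± 4.35 CPM in SETDB1 KO and 87.5 ± 2.52 CPM in SETDB1 FF (SD, n = 3 each).

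**Figure D2:**
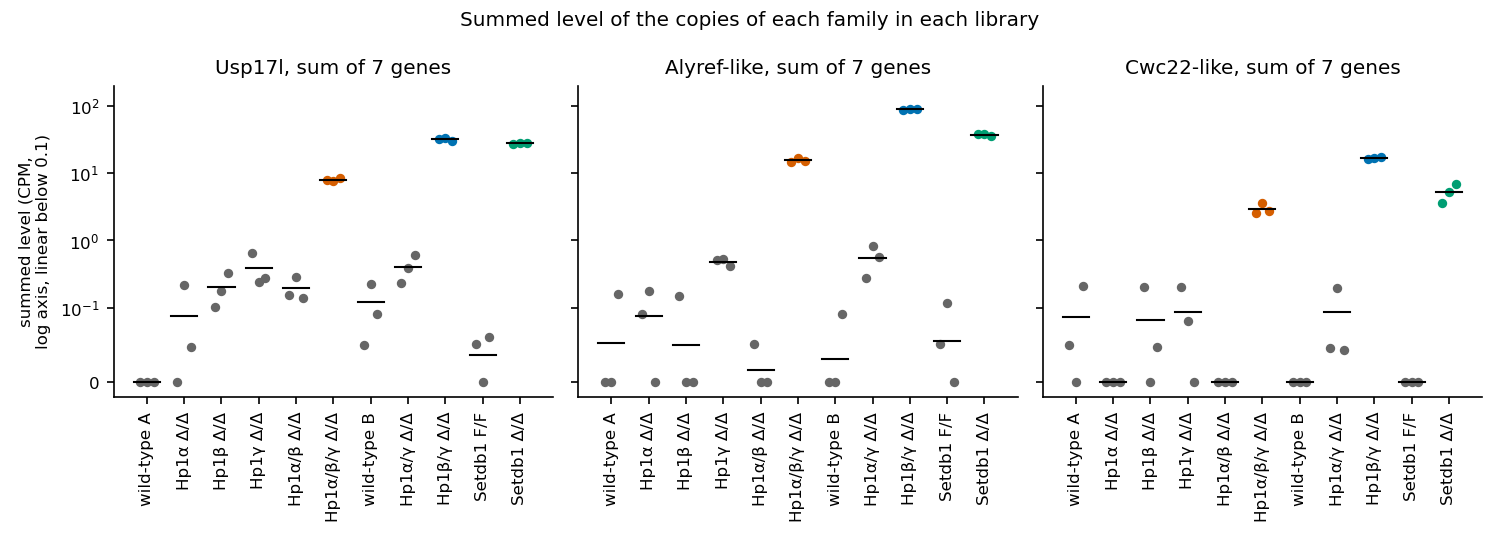
Summed level of the 7 genes of each family (CPM, log axis that is linear below 0.1) in the 3 libraries of each of the 11 groups, with a line at the group mean. In CPM each family is highest in β/γ DKO (blue), which for Usp17l does not hold in TPM. The libraries of a high group lie close together for Usp17l and Alyref-like genes, with the Cwc22-like copies of SETDB1 KO (green) between 3.58 and 7.02 CPM.

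The proportion of the families is given as a description, since copies of 2 of them were picked for their rise in the β/γ DKO. For each count of a Usp17l gene there were 2.82 ± 0.156 counts of Alyref-like copies in β/γ DKO ESCs, 1.97 ± 0.208 in TKO cells and 1.34 ± 0.0658 in SETDB1 KO cells (SD, n = 3 each), and the libraries of these groups did not overlap. For Cwc22-like copies the ratio was 0.521 ± 0.0351, 0.376 ± 0.092 and 0.187 ± 0.0578, again without overlap, although replicate 2 of TKO, at 0.483, came close to the lowest library of β/γ DKO, at 0.5. A ratio within a library is free of its scaling, but the 3 groups come from tables that were made separately, and no test is given. Within the Cwc22-like family Gm13696 held 84.7% ± 6.63 of the counts in β/γ DKO and 91.6% ± 5.51 in SETDB1 KO, but 25.4% ± 1.42 in TKO (SD, n = 3 each), with the rest assigned to other copies. Whether this reflects another copy or another division of the same reads was not tested.

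Per length, Usp17le led the Usp17l genes. By the deposited transcripts scaled for length and depth (TPM), Usp17le was the highest of the 5 in 9 of 9 libraries of the high groups, with 34.5% ± 2.22 of their summed TPM in β/γ DKO, 37.2% ± 1.85 in SETDB1 KO and 38.6% ± 3.07 in TKO (SD, n = 3 each). Usp17lb followed with 25.6% ± 2.72 in β/γ DKO and 28.4% ± 3.44 in SETDB1 KO, and Usp17ld had the smallest share in both, 9.84% ± 1.77 and 7.15% ± 1.17. Usp17lc had 13.7% ± 0.852 in β/γ DKO against 8.94% ± 0.705 in SETDB1 KO, with no overlap of libraries. In TKO cells the counts were fewer and the shares of the 4 genes other than Usp17le, from 11.5% to 17.8%, overlapped between genes. On this scale the 8 members summed to 64.7 ± 4.90 TPM in β/γ DKO, 51.6 ± 11.3 TPM in SETDB1 KO and 13.8 ± 2.17 TPM in TKO (SD, n = 3 each). The 7 genes of the Usp17l family summed to 20.2 ± 1.11 TPM in β/γ DKO and 24.4 ± 0.921 TPM in SETDB1 KO (SD, n = 3 each). These libraries did not overlap, and the order is the reverse of that in CPM. Usp17la, Usp17lb and Usp17le each had a higher mean TPM in SETDB1 KO than in β/γ DKO.

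**Figure D3:**
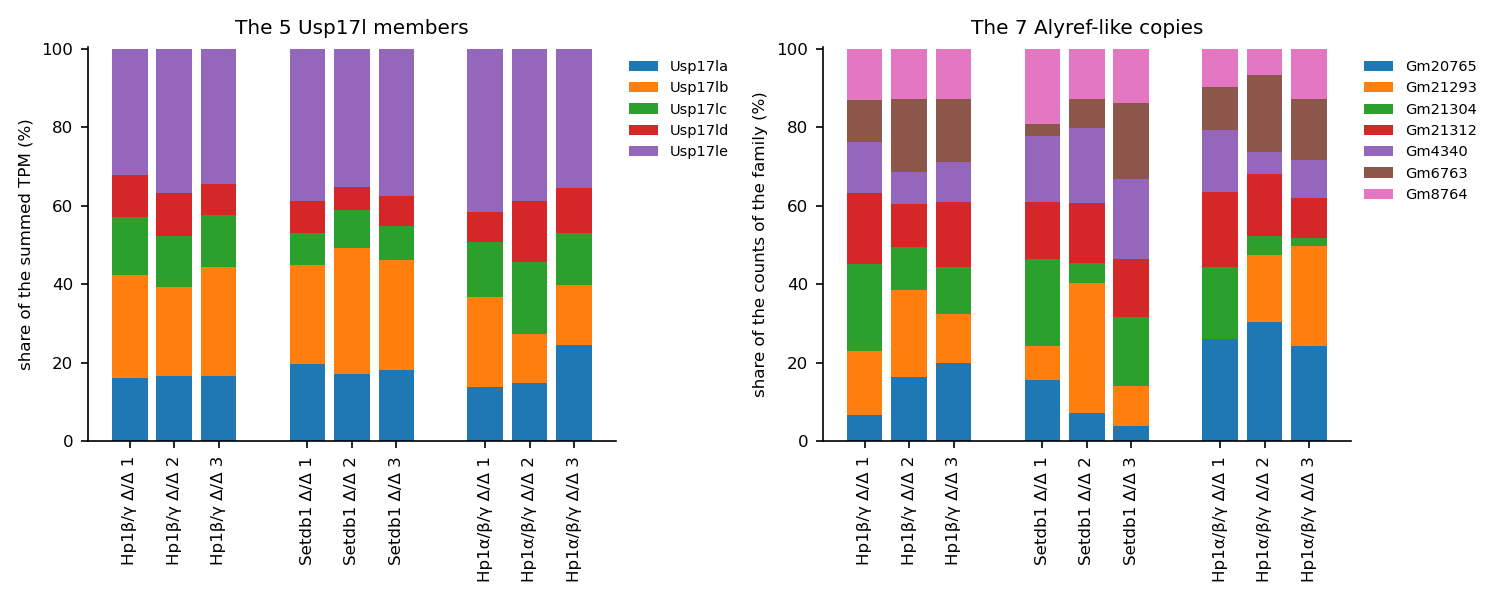
Share of each Usp17l member in the summed TPM of the 5 (left, %) and share of each copy in the counts of the Alyref-like family (right, %), in the 3 libraries of each high group. Usp17le holds 32.3% to 41.6% in every library. The shares of the other Usp17l genes vary more in TKO than in the other high groups, with Usp17la at 13.8% to 24.6% in TKO. The share of Gm21293 in its family ranges from 0% to 33.2%.

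In the other mutants the genes stayed near the floor. Across the 24 libraries of the 8 low groups, controls included, the highest count of any member was 9, and 143 of 192 values (74.5%) were 0. No member passed the filter in the comparisons of α KO, β KO, γ KO, α/β DKO or α/γ DKO ESCs, so that no call was possible there, where 1.56%, 2.75%, 2.04%, 2.96% and 6.75% of all genes tested were higher and 3.31%, 6.36%, 3.55%, 5.19% and 16.3% lower, and at this depth a difference of a few counts is not detectable. The summed level of the 8 genes was 0.612 ± 0.252 CPM in α/γ DKO, 0.541 ± 0.189 in γ KO, 0.204 ± 0.118 in β KO, 0.163 ± 0.0758 in α/β DKO and 0.118 ± 0.124 in α KO (SD, n = 3 each). Wild-type sets A and B were at 0.105 ± 0.14 and 0.122 ± 0.0918 CPM, and SETDB1 FF was at 0.0171 ± 0.0296 CPM (SD, n = 3 each). α/γ DKO and γ KO did not differ beyond their spread, and neither did any of the groups below them from the next, other than γ KO from β KO.

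Both low groups that lack Hp1γ stood slightly above their controls. The 3 libraries of γ KO had 15, 10 and 10 counts of members, against 1, 0 and 5 in wild-type set A. Those of α/γ DKO had 7, 16 and 17 counts, against 1, 5 and 2 in wild-type set B, the libraries of which also took part in the choice of the genes. In γ KO Usp17le had 9, 4 and 0 counts and Usp17la 4, 0 and 6, both against none in wild-type set A. Each was thus absent from 1 of 3 libraries, and the calls below rest on few counts. Usp17le was called higher in γ KO without the filter on low counts (adjusted p = 0.0243, edgeR), where 1 of 6 members fitted was called, beside 1.62% of 27243 genes. In a joint fit of all libraries of the control set Usp17le and Usp17la were called (adjusted p = 0.0149 and 0.0329, edgeR), 2 of 7 members fitted, beside 2.19% of 18246 genes. DESeq2 tested 1 member in this comparison and did not call it. For α KO, β KO and α/β DKO the fit without the filter called 0 of 5, 0 of 6 and 0 of 5 members, with 0 at an unadjusted p under 0.05, and DESeq2 tested none, while the joint fit called 0 of 7 in each, with 2, 1 and 2 at an unadjusted p under 0.05. For α/γ DKO the fit without the filter called 0 of 8 members and DESeq2 0 of 1, while the joint fit called 1 of 8, beside 7.57% of 16703 genes, and no p is given since its controls chose the genes.

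Other genes of the 2-cell stage moved with the members. From a list of 35 such genes, assembled with earlier results of these data known, 34 were in the tables. The list includes Gm4340, an Alyref-like copy that shares 95.5% of the windows of Gm21293 and Gm21312, so that its counts are not separate from theirs. In SETDB1 KO cells 25 of 25 tested were higher, with a median log2 fold change of 7.4 beside 0.01 over all genes tested, and in TKO cells against wild-type set A 20 of 20 were higher, with a median of 7.89 beside 0.03. As with the members, these genes passed the filter through the mutant libraries, so that the counts describe the list and support nothing. Zscan4f, of the Zscan4 family that is known for telomere maintenance in ESCs, had 20.5 ± 1.46 CPM in SETDB1 KO against 0.0201 ± 0.0347 in SETDB1 FF (SD, n = 3 each, adjusted p = 1.62e-15, edgeR). Gm8300 had 5.19 ± 0.657 CPM against none, and Zscan4d 13.1 ± 0.72 against 0.0193 ± 0.0334 CPM (SD, n = 3 each). In TKO cells Zscan4f had 6.59 ± 0.377 CPM and Zscan4c 4.2 ± 0.475 CPM (SD, n = 3 each), against no count in wild-type set A. None of the list passed the filter in α KO, β KO, γ KO, α/β DKO or α/γ DKO ESCs.

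Duxf3, the entry of Dux in the tables, had few counts in each of the high groups, with 14, 18 and 6 in β/γ DKO ESCs, 26, 18 and 29 in TKO and 16, 31 and 20 in SETDB1 KO. These counts are 0.548 ± 0.285, 1.15 ± 0.169 and 1.11 ± 0.362 CPM (SD, n = 3 each). Duxf3 was higher in TKO than in wild-type set A (adjusted p = 1.18e-06, edgeR) and in SETDB1 KO than in SETDB1 FF (adjusted p = 2.15e-06, edgeR), both without a count in the control, and did not pass the filter in the table of β/γ DKO. No library of the 8 low groups had more than 2 counts. Duxf3 is itself a repeated gene, and its counts carry the same doubt as those of the copies above. Of the other activators listed, Dppa4, a chromatin factor upstream of Dux, fell in TKO cells by 1.30 on the log2 scale (103 ± 4.16 against 254 ± 3.89 CPM, SD, n = 3 each, adjusted p = 2.37e-17, edgeR). Dppa4 was also lower in the α/β DKO, where members and Duxf3 were near 0 (116 ± 4.04 against 232 ± 3.67 CPM, SD, n = 3 each, adjusted p = 1.57e-12, edgeR).

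Among 26 listed repressors of the 2-cell state, 2 were lower and 1 was higher in SETDB1 KO cells, with Ehmt2, which encodes the methyltransferase G9a, at 78.4 ± 1.75 against 228 ± 3.56 CPM (SD, n = 3 each, adjusted p = 5.12e-18, edgeR). The other called genes were Suv39h2, which fell by 1.68 on the log2 scale, and E2f6, which rose by 1.07. In this comparison 11.4% of all genes tested were lower. In TKO cells 5 fell below wild-type set A and 1 exceeded it, where 17.1% of all genes were lower, among them Ehmt1 (58.1 ± 4.47 against 179 ± 1.6 CPM) and Sumo2 (238 ± 6.34 against 609 ± 15.7 CPM, SD, n = 3 each), with Mga as the gene that was higher. In the α/γ DKO, where the members stayed near the floor, Suv39h1 (16.3 ± 2.58 against 44.9 ± 2.28 CPM) and Smchd1 (73.2 ± 25.2 against 174 ± 11.7 CPM, SD, n = 3 each) were lower (adjusted p = 0.0003 and 0.00651, edgeR), beside 16.3% of all genes tested. In α KO, β KO, γ KO, α/β DKO and β/γ DKO none of the 26 was called.

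The other ubiquitin-specific peptidases did not move as a group. Of 53 genes with a symbol of Usp and a number, members left out, 50 were tested in SETDB1 KO cells. Beside 18.5% higher and 11.4% lower among all genes tested, 3 of these 50 were higher and 4 lower, with a median log2 fold change of -0.1. The interferon-induced Usp18 was the most changed of them (2.06 ± 0.483 CPM against no count, SD, n = 3 each, adjusted p = 6.37e-08, edgeR), and Usp26 rose from 0.871 ± 0.272 to 27.0 ± 0.795 CPM (SD, n = 3 each, adjusted p = 6.35e-16, edgeR). In TKO cells 4 of 49 exceeded wild-type set A and 8 were below it, with a median of -0.18, and Usp26 fell by 4.65 on the log2 scale (7.51 ± 0.999 against 189 ± 4.07 CPM, SD, n = 3 each). It was as low in groups with silent members, at 4.83 ± 0.804 CPM in the α/β DKO and 7.48 ± 0.56 CPM in the β KO (SD, n = 3 each), and it was called lower in the γ KO, α/γ DKO and β/γ DKO as well. The control level of Usp26 was far lower in SETDB1 FF than in the wild-type sets, and the difference between the comparisons was not tested. In the β/γ DKO 1 of 50 tested was higher and 4 were lower, beside 7.32% and 4.54% of all genes tested. The higher gene was Usp9y, at 6.31 ± 0.985 against 0.0636 ± 0.0552 CPM (SD, n = 3 each, adjusted p = 1.07e-09, edgeR). Whether the lines of this comparison differ in other ways was not tested.

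The genes beside the clusters were mostly silent. Within 250 kb of Usp17lc and Usp17ld the tables hold 51 other genes, 43 of them olfactory receptor genes, of which 1 was tested and none called in SETDB1 KO cells. Olfr613, 1 of 2 tested there in each of 2 other comparisons, was higher in β/γ DKO (log2 fold change 2.31 ± 0.278 (SE), adjusted p = 5.64e-06, edgeR). It was also higher in α/γ DKO, where the members stayed near the floor (1.39 ± 0.303 (SE), adjusted p = 0.00859, edgeR). Within 250 kb of Usp17la, Usp17lb and Usp17le there are 44, with 30 olfactory receptor genes, and none was tested in SETDB1 KO. In TKO cells 1 gene there, Olfr677, was tested and was higher (log2 fold change 7.21 ± 1.04 (SE), adjusted p = 6.43e-06, edgeR). All 7 genes within 250 kb of the Alyref-like cluster were at 0 in every library of SETDB1 KO, TKO and their controls. Beside the Cwc22-like cluster, Fam171b was higher in SETDB1 KO cells (log2 fold change 2.54 ± 0.117 (SE), adjusted p = 1.25e-12, edgeR), as 1 of 2 genes tested. It was lower in the α/γ DKO (-2.57 ± 0.323 (SE), adjusted p = 0.000798, edgeR). Olfr613, Olfr677 and Fam171b are named here after their values were seen.

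The pattern of the summed members over all 33 libraries was most like that of Mmp12, Zscan4c, Gm13078, Spopfm3, Gm47808, Zscan4f, Zscan4-ps2 and Gm21319, with Pearson's r of 0.982 to 0.985 for log2(CPM + 1) among 19735 genes with at least 10 counts in 3 libraries. The libraries fall into 9 high and 24 low ones and share scaling, so that r describes mainly this split, and no p is given. The libraries that chose the members are among them, and without these Mmp12 moved from place 1 to place 23, while Zscan4c and Zscan4f took places 1 and 2. Mmp12, which encodes the elastase of macrophages, had 95.1 ± 2.81 CPM in β/γ DKO, 43.1 ± 2.37 in SETDB1 KO and 9.15 ± 0.41 in TKO. Zscan4c was highest in SETDB1 KO, at 12.2 ± 0.56 CPM, above 8.72 ± 0.63 in β/γ DKO and 4.2 ± 0.475 in TKO (SD, n = 3 for each value).

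**Figure D4:**
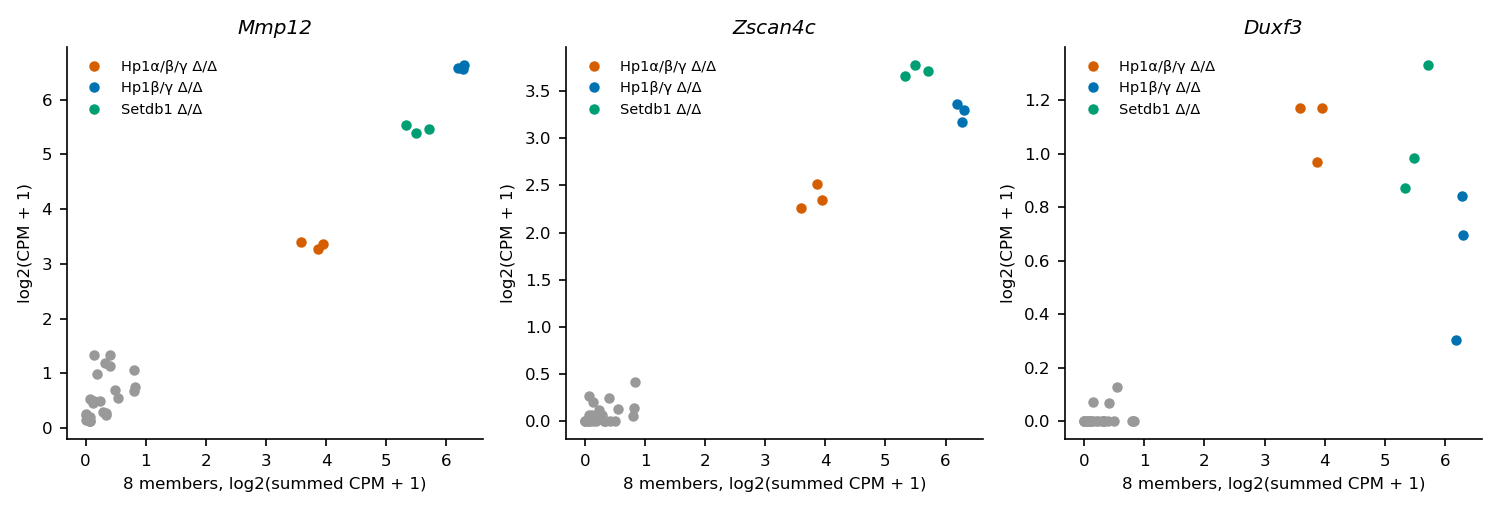
Level of Mmp12, Zscan4c and Duxf3 (log2(CPM + 1)) against the summed level of the 8 members (log2(summed CPM + 1)), 1 point for each of 33 libraries, with the 3 high groups in colour and the 24 low libraries in grey. Mmp12 is highest in β/γ DKO, Zscan4c is highest in SETDB1 KO (green), and Duxf3 has a lower mean in β/γ DKO (blue) than in TKO (orange), with 1 library of each at 18 counts.

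Total counts ran from 17330992 to 25743193 in a library, and the targeted genes lay below every control library in all libraries of their mutants, at 10.3% to 57.1% of control for Cbx5, Cbx1 and Cbx3 and at 52.5% for Setdb1. All 8 ESC markers listed had counts in every library. In TKO cells their summed level was 1390 to 1430 CPM, against 2760 to 2780 CPM in wild-type set A, and in SETDB1 KO cells it was 4500 to 4530 against 6750 to 6770 CPM. The ESCs were grown on feeder fibroblasts, and 8 markers of these summed to 11.7 to 13.5 CPM in TKO, against 29.3 to 31.8 CPM, and to 1.8 to 2.8 against 6.92 to 7.8 CPM in SETDB1 KO. Of 6 feeder markers tested in TKO cells 3 were lower and 1, Col3a1, was higher, beside 17.1% and 25.1% of all genes tested. The feeder sum was also lower in the α/γ DKO, where the members stayed near the floor (8.92 to 9.88 against 43.9 to 52.9 CPM). Of 5 primitive endoderm markers tested 4 were higher in TKO cells, beside 25.1% of all genes tested, from 7.59 to 9.7 CPM in the control to 19.6 to 21.7 CPM in sum. In SETDB1 KO the endoderm sum was 10.3 to 11.6 CPM against 19.5 to 20.7 CPM. Of 6 tested there 2 were lower and 1, Foxa2, was higher (1.08 ± 0.142 against 0.11 ± 0.047 CPM, SD, n = 3 each), beside 11.4% and 18.5% of all genes tested. Of 6 trophoblast markers 4 were higher in TKO cells, beside the same 25.1% of all genes tested, with a sum of 196 to 208 against 107 to 108 CPM. The trophoblast sum was 63.6 to 67.6 against 100 to 103 CPM in SETDB1 KO and 385 to 396 CPM in the α/β DKO, where the members were near 0. Of 3 tested in SETDB1 KO 1 was lower, and of 5 tested in the α/β DKO 3 were higher, beside 11.4% and 2.96% of all genes. Most of the sum in the α/β DKO was Krt8, at 234 ± 1.94 CPM, and Tfap2c, at 152 ± 6.92 CPM (SD, n = 3 each). In the β/γ DKO the trophoblast sum was 486 to 494 against 152 to 160 CPM, most of it Krt8, at 434 ± 4.49 against 97.7 ± 2.65 CPM (SD, n = 3 each). Of 5 trophoblast markers tested there 2 were higher and 1, Ascl2, was lower, beside 7.32% and 4.54% of all genes tested. Their median log2 fold change was 0.01. The sums of ESC, feeder and primitive endoderm markers in the β/γ DKO were 1850 to 1890 against 2400 to 2470, 33.2 to 36.9 against 46.8 to 56.4 and 13.2 to 14.3 against 8.57 to 11 CPM, with none of these 3 lists holding a called gene. The part of these cell types in the results above was not tested.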

How the data were processed

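Each of 8 tables deposited by the authors pairs a mutant and its control and holds estimated counts (expected_counts) and TPM per gene, made with TopHat2 2.1.1, RSEM and edgeR on GRCm38.p5 by the submitters' processing notes. The expected counts deposited by the authors are not normalized, and the TPM deposited by the authors are scaled for length and depth. Further columns hold the authors' fold changes, p and adjusted p values and were not used. Members and lists were chosen with earlier results of these data known. Named genes were the 8 members, the targeted genes, the 8 genes most correlated with the members, and up to 4 largest called changes of each list.

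Counts were rounded and fitted for all genes in edgeR 4.0.16 (R 4.3.3) on the 6 libraries of each comparison, with filterByExpr at a minimum count of 10, TMM, glmQLFit and glmQLFTest, and called at thresholds of 0.05 for the adjusted p (Benjamini-Hochberg) and of 1 for the log2 change. Bounds use a floor of 3 counts a library. At 3 counts in the shallowest library the floor is 0.173 CPM. Copies were found by shared 100-base windows of GENCODE M21 transcripts. The fits were checked on simulated data. The mitochondrial gene mt-Atp6 is listed at 0 in all tables with wild-type set A and has counts in the others, so that counting may differ between tables, and levels of different tables are set side by side without a test. Alternatives, among them DESeq2 1.42.0, are given in the closing section.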

Additional observations from a re-analysis of the deposited data

How the results depend on the processing

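Members that passed the filter kept direction and call in 255 of 255 refits in SETDB1 KO and TKO, which with controls near 0 says little on stability. Gm21293 in TKO did not pass the filter, and in TKO against α/β DKO it was called without the filter but not by DESeq2, which called 7 of 8. Counts of members called higher moved in few cases. At a minimum count of 20 they were 3 for TKO against wild-type set A and 3 against α/β DKO, where only 3 members were still tested. For γ KO the count was 1 without the filter and 2 in the joint fit of the control set, and for α/γ DKO it was 1 in the joint fit, against 0. With each library left out in turn the counts were 7 to 8 for TKO against both controls, 8 to 8 for SETDB1 KO and β/γ DKO, and 0 to 0 elsewhere. The replicate number as a block left the counts at 7, 7, 8, 8 and 0, and same-numbered libraries did not deviate together (correlations of -0.0614 to 0.0563), so that the numbers do not pair the libraries. RLE size factors, DESeq2, an adjusted p without the fold threshold and the other wild-type set left the counts within 1.5 times.

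In deposited TPM the summed level was 79.8% of that of β/γ DKO in SETDB1 KO and 21.3% in TKO, against 59.4% and 17.3% in CPM. Of the 8 genes most like the members, 1 remained among the first 8 by Spearman's rho and 3 without the libraries of β/γ DKO and wild-type set B. Summing the copies of a family was chosen after seeing the data. At these depths a member under 10 counts in every library did not pass the filter, and the division of reads between identical copies limits statements on a single copy of the Alyref-like and Cwc22-like families.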

Other observations

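Of 7 copies that are no members with enough counts to compare, 5 had a Pearson's r of 0.9 or more with the summed members over the 33 libraries, as had 114 of 19735 genes in all. Gm20765 had 79, 96 and 88 counts in TKO cells, the most of any Alyref-like copy in replicates 1 and 2, while Gm21293 with 91 was above it in replicate 3, and 114, 56 and 28 in SETDB1 KO. Gm13693 and Gm13694, copies of Gm13696, were assigned 20 and 19 counts in replicate 1 of TKO and 1 and 0 in replicate 3, where Gm13697 and Gm13698 had 15 and 18. Gm5053, annotated as a processed pseudogene of the Usp17l family, had 11, 10 and 6 counts in β/γ DKO, and Usp17le-ps had none in any of the 9 high libraries. Alyref2 was higher in TKO cells than in wild-type set A, at 4.62 ± 0.0968 against 1.83 ± 0.117 CPM (SD, n = 3 each, adjusted p = 1.16e-05, edgeR's quasi-likelihood test), and Alyref itself was not called, at 153 ± 2.45 against 150.3 ± 4.99 CPM.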
